A study of Homo sapiens with 18 samples.

Results

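The FOXO factors and the genes linked to them were followed in human pancreatic progenitors as 10 genes picked by symbol from the 21944 genes of the deposited table. The members are the transcription factors *FOXO1*, *FOXO3* and *FOXO4*, and *DEPP1*, *DDIT4*, *TXNIP*, *IRS2*, *KLF9*, *CCNG2* and *PIK3IP1*. They were chosen with the authors' comparisons of these samples known, and the values of those comparisons were not used here. All 10 were listed at 3, 6 and 24 h, as were 18672 of the 21944 genes, which are those listed at any time. A gene without a row has no value here, which does not show that it was not expressed. The cells were day 19 progenitors derived from human embryonic stem cells, dissociated with accutase and reseeded on wells coated with fibronectin (FN) or with the laminin isoform LN411, and collected 3, 6 or 24 h later. There were 6 groups, FN and LN411 at each time, of 3 samples each, 18 in all. The labels name HUES4 as the cell line and also give the cells as NGN3-GFP derivatives of SA121, a reporter line for NEUROG3, and the paper names NGN3-GFP for this experiment. All samples were reseeded, so that none stands for cells left in place.

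FOXO proteins are forkhead transcription factors that insulin and growth factor signals hold out of the nucleus, since the kinase AKT phosphorylates them and 14-3-3 proteins then bind them. When this signal is low, they enter the nucleus and act on genes of stress resistance, growth arrest and metabolism, some of which dampen or restore insulin signalling itself. In the pancreas, FOXO1 is known for its part in the identity and stress response of beta cells.

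The measurement reported here is the mean normalized count of each gene. It is the mean that DESeq2 writes, of read counts divided by size factors and averaged over samples. The samples behind it are not named. It was taken to cover all 18, FN and LN411 at all times, since its value barely differed between the 3 times. It is therefore a level of the gene in this experiment as a whole, without values per sample or any measure of their spread, and whether LN411 changed it cannot be read from it. The depth of single libraries is unknown. Over all genes the mean normalized counts sum to 53217583. The value of a gene differed between the rows of the 3 times by a relative gap of at most 4.89e-07.

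The labelled cell type was checked against its markers. The pancreatic progenitor markers *GP2*, *SOX9*, *PDX1*, *FOXA2* and *NKX6-1* had mean normalized counts of 3040 to 135959, all above the median of all genes, and *PTF1A* was below it with 12.5. The stem cell factors *POU5F1* and *NANOG* had no row in the table. Genes taken as markers of other cell types were also present. All 3 of the liver or gut list were above the median of all genes, with 26676 for *AFP*, 3556 for *CDX2* and 640 for *ALB*, as were 2 of 3 mesenchymal genes, with 6543 for *VIM*, 4091 for *COL1A1* and 114 for *PDGFRB*. Of the endocrine markers 3 of 5 were above it, from 4312 for the granin *CHGA* down to 8.32 for *INS*, of the duct markers both, *KRT19* with 52818 and *CFTR* with 7496, and of the 2 acinar markers *PRSS1* with 2416 but not *CPA1* with 103. The median of protein-coding genes alone was higher, at 1077. *ALB* was below that median, and of the endocrine markers *CHGA* alone was above it. Levels pooled over FN and LN411 at all times do not show which cells or which groups these transcripts came from. The paper describes the progenitors as bipotent, able to give duct or endocrine cells. Any part of other cells in the levels of the members was not tested.

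**Figure D1:**
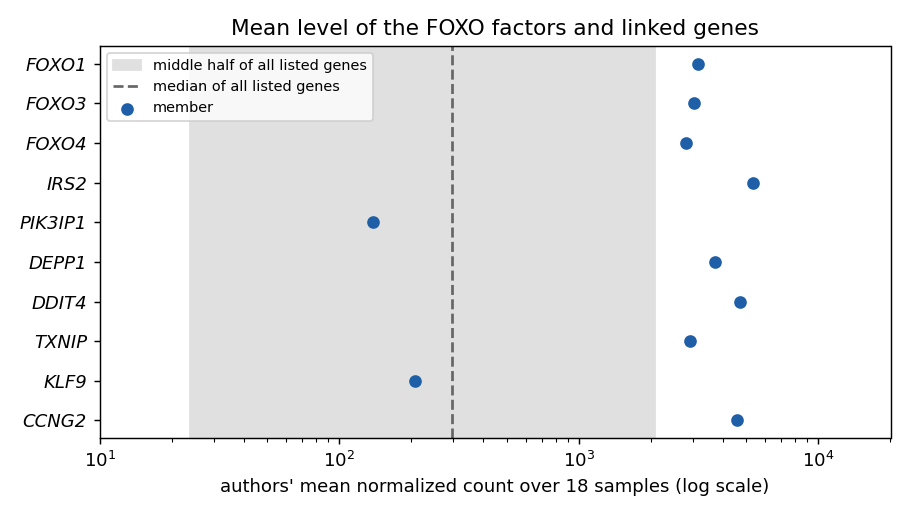
Authors' mean normalized count over 18 samples, on a log axis, for the 10 members (points), with the range from the lower to the upper quartile of all listed genes shaded (23.9 to 2071) and their median dashed (297). *KLF9* and *PIK3IP1* lie inside the shaded range and below its median, and the other 8 members lie above it.

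The 3 FOXO factors were present at similar mean normalized counts, which include differences in gene length. *FOXO1* (ENSG00000150907), the factor best known in insulin target tissues and beta cells, had 3154. *FOXO3* (ENSG00000118689), a factor linked to stress resistance, had 3039. *FOXO4* (ENSG00000184481) had 2814. *FOXO1* made up 35.0% of the summed mean normalized counts of the 3 factors. *FOXO1* was above 82.1% of the listed genes, *FOXO3* above 81.4% and *FOXO4* above 80.1%. *FOXO6*, the remaining member of the family, had no row in the table.

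The genes of insulin and PI3K signalling lay at opposite ends of the members. *IRS2* (ENSG00000185950), an adaptor that carries the signal of the insulin receptor to PI3K, had the highest mean normalized count of the members with 5337, above 90.0% of the listed genes. *PIK3IP1* (ENSG00000100100), a membrane protein that restrains PI3K, had the lowest with 139, above 43.5% of them. The count ratio of *IRS2* to *PIK3IP1* was 38.5, which includes the difference in gene length.

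The genes of stress, growth and cell cycle control were in the upper quartile of all listed genes, which starts at a mean normalized count of 2071. *DDIT4* (ENSG00000168209), whose product REDD1 inhibits mTORC1, had 4704. *DEPP1* (ENSG00000165507), a FOXO target linked to autophagy and oxidative stress, had 3718. *TXNIP* (ENSG00000265972), which binds thioredoxin and limits glucose uptake, had 2909. *CCNG2* (ENSG00000138764), an atypical cyclin associated with exit from the cell cycle, had 4584. *KLF9* (ENSG00000119138), a zinc finger transcription factor induced by glucocorticoids, was lower with 208, above 47.0% of the listed genes. In all, 8 of the 10 members were above the upper quartile of all listed genes, and *KLF9* and *PIK3IP1* were below the median of 297. All members are protein-coding, and among the 15355 protein-coding genes, whose upper quartile starts at 3217, 4 members were above it, namely *IRS2*, *DDIT4*, *CCNG2* and *DEPP1*. *FOXO1*, *FOXO3*, *FOXO4* and *TXNIP* were then below it, above 71.8% to 74.5% of these genes.

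Long genes collect more reads, so the members were set beside each other per kilobase of annotated exons. *DDIT4* was highest with a mean normalized count of 2221 per kb, on exons of 2118 bases in total. *DEPP1* followed with 1248 per kb and *TXNIP* with 807 per kb. The factors had 743 per kb for *FOXO4*, 529 per kb for *FOXO1* and 396 per kb for *FOXO3*. The order of *FOXO1* and *FOXO4* by count was thus turned around per kb of exons. *IRS2*, first by count, came after *FOXO4* with 654 per kb over its 8156 exonic bases. *CCNG2* had 618 per kb. *KLF9* with 39.9 per kb and *PIK3IP1* with 36.5 per kb were again lowest. The median over all genes was 76.2 per kb, and the same 8 members were above the upper quartile of 375 per kb. Among protein-coding genes, an alternative chosen after the data were seen, the upper quartile was 562 per kb, and *FOXO1* and *FOXO3* were below it, which left 6 members above. The ratio of *DDIT4* to *PIK3IP1* was 60.9 per kb, and that of *FOXO4* to *FOXO1* was 1.40. Without values per sample, no error can be given for these ratios, and neighbours in the order cannot be told apart.

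**Figure D2:**
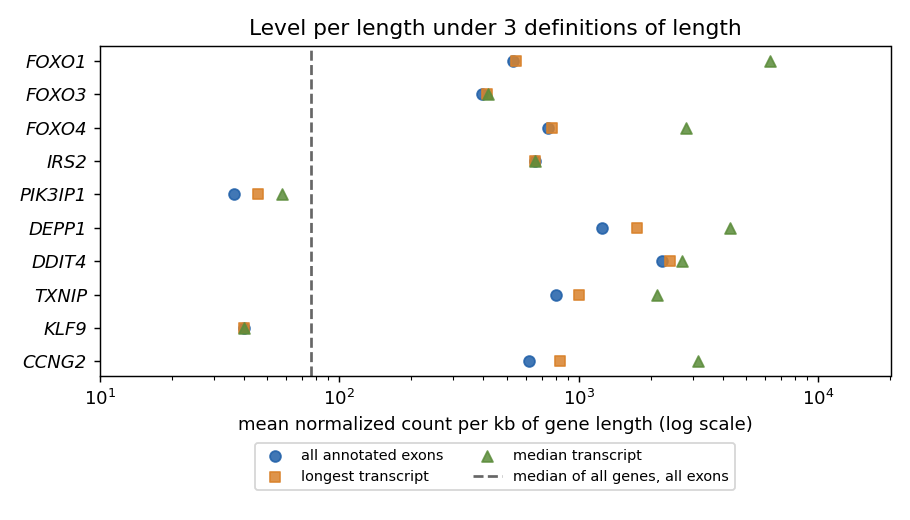
Mean normalized count per kilobase for the 10 members, on a log axis, with length taken as all annotated exons (circles), the longest transcript (squares) or the median transcript (triangles), and the median of all genes dashed (76.2 per kb of exons). *FOXO1* moves the most, from 529 per kb of exons to 6308 per kb of its median transcript of 500 bases, while *KLF9* and *PIK3IP1* are lowest under each of the 3 lengths.

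The order rests on the length used. With the longest transcript, the first 3 members were again *DDIT4*, *DEPP1* and *TXNIP*, at 2393, 1754 and 1001 per kb. With the median transcript length, *FOXO1* came first with 6308 per kb, since its 4 annotated transcripts have a median length of 500 bases. *FOXO4* had 2800 per kb under that length, so that *FOXO1* was above it, as by count. *KLF9* and *PIK3IP1* changed places under both of these lengths, at 39.9 per kb for *KLF9* and 45.8 or 57.9 per kb for *PIK3IP1*.

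The pathway around the members was described with 3 lists. The median of all genes, beside which they are set, includes non-coding genes, and the lists were not ranked among protein-coding genes alone. The insulin, PI3K and AKT list holds 19 genes, all of them in the table, and 16 were above the median of all genes per kb, with a list median of 348 per kb. By mean normalized count, *SGK1*, a kinase related to AKT that also phosphorylates FOXO proteins, was highest with 26826 (2693 per kb) and the PI3K subunit gene *PIK3R2* was lowest with 9.12 (1.77 per kb). Exons shared with other genes were looked up for the members only, and their part in the *PIK3R2* level was not tested. The list of FOXO modifiers and partners holds 16 genes, all listed and all above that median, with a list median of 669 per kb. By mean normalized count, the list ran from *SIRT2*, a deacetylase, with 675 (109 per kb) to the 14-3-3 gene *YWHAZ* with 38161 (4460 per kb).

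Of 23 other genes described as FOXO targets, 20 were listed, and *G6PC1*, *PCK1* and *FASLG* had no row. Of the 19 with an exon length, 13 were above the median of all genes per kb, with a list median of 290 per kb. The highest by mean normalized count was *SESN3*, a stress-induced regulator of mTORC1, with 9755 (922 per kb). The lowest was *TRIM63*, a ubiquitin ligase of muscle, with 10.8 (4.18 per kb). The median of the 10 members was 636 per kb. The members and lists were picked from known biology and with earlier results in view, so that these medians are descriptions.

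**Figure D3:**
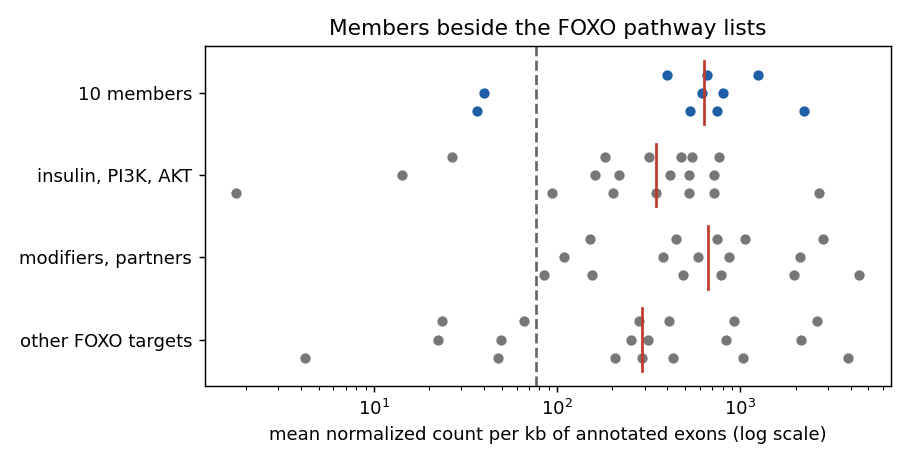
Mean normalized count per kilobase of annotated exons, on a log axis, for the 10 members (blue) and the genes of the 3 pathway lists (grey), with list medians as red bars and the median of all genes dashed (76.2 per kb). The list medians are 348, 669 and 290 per kb beside 636 per kb for the members, and each list but that of the modifiers has genes below the dashed line.

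Reads of some members can be shared with other genes. *FOXO3* lies on chromosome 6 of GRCh38, 108559835 to 108684774, on the plus strand, and has a close copy, *FOXO3B*, on chromosome 17, 18667629 to 18682314. *FOXO3B* was listed with a mean normalized count of 846, which is 27.8% of that of *FOXO3*. Of all stretches of 50 bases in *FOXO3* transcripts, 35.6% also occurred in transcripts of *FOXO3B*, and of stretches of 100 bases 22.5%. STAR counts reads that map to a single place, so reads from these stretches can be lost from *FOXO3*, and its level and that of its copy are uncertain. *FOXO4* shared no stretch of either length with another annotated gene, and neither did *DDIT4*, *TXNIP*, *KLF9* or *CCNG2*.

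*DEPP1* lies on chromosome 10, 44970981 to 44978809, on the minus strand, and its whole span of 7829 bases falls within *RASSF4*, a gene of the opposite strand. The exons of both overlap by 695 bases, which is 23.3% of the exonic bases of *DEPP1*. *RASSF4* had a mean normalized count of 1494. The paper does not state whether counting used the strand, so reads in the overlap may have been counted for either gene or left out. *FOXO1*, on chromosome 13 from 40555667 to 40666641 on the minus strand, shares 22.7% of its exonic bases with an unnamed long non-coding gene of the same strand (ENSG00000288542), which had no row in the table. *DDIT4*, also on chromosome 10, at 72273919 to 72276036 on the plus strand, overlaps no other annotated gene. *TXNIP* on chromosome 1, 145992435 to 145996579, *KLF9* on chromosome 9, 70384604 to 70414657, and *FOXO4* on chromosome X, 71095851 to 71103532, overlap none either. *IRS2* on chromosome 13, 109752695 to 109786583, and *PIK3IP1* on chromosome 22, 31281594 to 31292534, share 1.41% and 0.946% of their exonic bases with long non-coding genes of the opposite strand. *CCNG2* on chromosome 4, 77157207 to 77433388, has 4 genes within its span that touch none of its exons.

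The promoters of the members were searched for GTAAACA, a motif that FOXO proteins bind, on both strands. RefSeq on GRCh38.p14 gives 15 promoter windows for the 10 members, from 250 bases before to 50 after a start site, and 4 of these windows held the motif. Of all 35116 windows, 3.42% held it. The members were chosen for their link to FOXO and have unequal numbers of windows, so both values are descriptions and were not tested. The 4 sites are shown because they are the only matches among the members, with the matching bases in capitals, in the direction of the gene.
TXNIP: cgggctcctgGTAAACAaggaccgggc
DEPP1: gccctgcagcGTAAACAttccccagcc
FOXO4: ccggcgagtgGTAAACAgagacgtcag
PIK3IP1: aaagagaggcTGTTTACcagaacagca
The *TXNIP* site (chr1:145996687-145996713) starts its match 124 bases before the start site, and the *DEPP1* site (chr10:44978973-44978999) 180 bases before it. The matches in *FOXO4* (chrX:71095864-71095890) and *PIK3IP1* (chr22:31292456-31292482) begin 23 and 16 bases after the first transcribed base, and that of *PIK3IP1* is on the opposite strand, read as TGTTTAC. A match describes these letters only and does not tell which forkhead factor could bind them. Binding was not measured. Windows of *DDIT4*, *IRS2*, *KLF9*, *CCNG2*, *FOXO1* and *FOXO3* held no match. By level, the members with a match ran from 139 (*PIK3IP1*) to 3718 (*DEPP1*) mean normalized counts and those without from 208 (*KLF9*) to 5337 (*IRS2*).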

How the data were processed

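The study sequenced polyA RNA of 18 samples, in 6 groups of 3. According to the paper, the authors aligned reads with STAR 2.7.2d to GRCh38.p13, counted them per gene with the GENCODE v32 annotation and normalized them with DESeq2 1.34.0; the strand setting is not given in the sources used here. The value used is a signal that the authors deposited, the mean normalized count over all samples. The other value columns hold the authors' own comparisons of LN411 with FN at 3, 6 and 24 h (log2 fold change, standard error, statistic, p-value and adjusted p-value) and were not used. Counts per sample were not analysed here. The count model planned for that case was therefore not run, and no test was made. Planned protein identities were not computed here.

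Each gene was ranked among all listed genes. Lengths, positions and overlaps came from GENCODE v44 on GRCh38, matched by identifier for 99.62% of genes. The counts rest on GENCODE v32, so exon lengths and overlaps may differ from those used in counting. An overlapping gene may also lack a row because v32 does not hold it. Neither was tested. Stretches of 50 and 100 bases were searched in all transcripts of other genes, on both strands. Named genes were the 10 members, *FOXO6*, *FOXO3B*, overlapping genes and the highest and lowest gene of each list by count; cell type markers were named as a check, of which 1 is not reported here. Members and lists were chosen with earlier results of these data known. Python 3.11.15 and pandas 2.3.3 were used, and ranking, lengths and motif search were tested on simulated data.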

Additional observations from a re-analysis of the deposited data

How the results depend on the processing

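The median member was above 81.7% of all listed genes by mean normalized count, 79.3% of genes with a mean of at least 10 and 74.1% of protein-coding genes. Removing genes of low mean lowers every member's rank by construction. Above the upper quartile by count were 8 members among all genes, 8 among genes with a mean of at least 10 and 4 among protein-coding genes. Per kb of exons, a count added after the data were seen, these numbers were 8, 7 and 6. Per length, the median member was above 84.1% of genes with all exons, 80.3% with the longest transcript and 81.4% with the median transcript. The motif count of 4 windows became 1 with the longer GTAAACAA (*TXNIP*), which 0.954% of all windows hold, and 12 of 15 with the core AAACA, which 44.4% of all windows hold. No paired analysis was possible because the values used are a mean over all samples. For the same reason, other normalizations, filters on the counts of samples and leaving out replicates were not run. The protein alignments were not run, as protein sequences were not used here.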
